A study of Mus musculus with 14 samples.

Results

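Serglycin, the core protein of the mast cell granule proteoglycan, and 9 enzymes that build heparin and heparan sulfate chains were followed in mast cells sorted from mouse ear skin. The 10 genes were chosen by name, from their known roles, out of 55487 genes in the count table. Earlier results of these data were known when they were chosen. All 10 passed the filter on low counts that left 21014 genes for testing. They were Srgn, which encodes serglycin, and Xylt1, Ext1, Ext2, Ndst1, Ndst2, Glce, Hs2st1, Hs6st1 and Hs3st1. The study compared 14 RNA sequencing libraries, each made from a pool of at most 100 sorted cells. MC903 is calcipotriol, a vitamin D analogue that gives mouse skin a dermatitis resembling atopic dermatitis when applied to it. Resident mast cells gave 5 libraries from untreated mice and 5 from mice given MC903, and a further 4 libraries from mice given MC903 carry the cell type label bone marrow mast cells. The protocol speaks only of resident and integrin β7-positive mast cells from the ears, so the third group was taken to be the integrin β7-positive cells, and it is called bone marrow cells below, as labelled. No group of integrin β7-positive cells from untreated skin was analysed here, and strain, sex, age, dose and treatment time were not given in the sources used here. Nothing in the labels says which libraries came from separate animals, so the p-values measure only the spread between these libraries, which may be technical.

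Mast cell granules store proteases, histamine and other amines on serglycin, whose repeated serine and glycine residues carry long, highly sulfated glycosaminoglycan chains. Connective tissue type mast cells attach mainly heparin to it, and mucosal type mast cells attach mainly chondroitin sulfates. Chain building starts when a xylosyltransferase adds xylose to a serine. A linkage region is then completed, the EXT1 and EXT2 complex polymerises alternating glucuronic acid and N-acetylglucosamine, and NDST enzymes swap acetyl for sulfate groups on the amino sugars. The epimerase GLCE turns glucuronic into iduronic acid, and O-sulfotransferases finish the chain at its 2-O, 6-O and 3-O positions. In mice, NDST2 is the form on which mast cell heparin depends.

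Total counts were between 13068078 and 31781926 per library. Mitochondrial genes took 1.22% to 1.70% of them in untreated resident, 2.39% to 3.96% in MC903 resident and 2.14% to 4.24% in bone marrow libraries, and their part in the results was not tested. The summed level of 9 mast cell markers lay between 84555 and 159329 scaled counts (CPM, read counts relative to the library size) in every library, so the labelled cell type matched its markers. Single markers differed between groups. In MC903 resident against untreated cells edgeR called 4 of the 9 higher and 2 lower, where 2.25% of all genes tested were called. Bone marrow cells had 4 higher and 2 lower against untreated cells (6.87% of all genes). Against MC903 resident cells they had 0 higher and 2 lower (2.27% of all genes). Bone marrow library 15 stood apart, with a summed level of 11561 CPM for 9 macrophage and dendritic cell markers, against 6.10 to 277 CPM in bone marrow libraries 11, 13 and 14, 33.9 to 148 CPM in MC903 resident and 25.2 to 78.9 CPM in untreated resident libraries. C1qa and C1qc were at 0 in every untreated library. Sums over the keratinocyte, fibroblast, endothelial, neutrophil and T cell markers were at most 83.8 CPM in any library, and those of 4 basophil markers lay between 293 and 1542 CPM in bone marrow and between 497 and 820 CPM in resident libraries. Within these lists some markers moved with the bone marrow group. The basophil protease Mcpt8 was at 976, 205, 83.2 and 46.5 CPM in bone marrow libraries 11, 13, 14 and 15, against at most 37.2 CPM in untreated and 57.0 CPM in MC903 resident libraries (edgeR adjusted p = 0.0502 and 0.077, not called). Itga2, an integrin subunit, was at 22.8 to 35.9 CPM in bone marrow libraries and at least 52.9 CPM in every resident one (called lower in both comparisons). Pecam1, of the endothelial list, was at 7.44 to 39.7 CPM in bone marrow against at most 2.51 CPM in untreated libraries (called higher). No other endothelial marker was called. In bone marrow libraries 11, 13 and 14, Kdr was at 0 CPM and Cdh5 at most at 0.0835 CPM. Emcn, Cldn5 and Tek were there at most at 0.918, 0.0693 and 1.67 CPM, and library 15 had 5.40 CPM of Kdr. The part of these markers in the results was not tested. Genes with at least 1 count numbered 21874 to 25244 in untreated resident, 22632 to 35246 in MC903 resident and 16025 to 32814 in bone marrow libraries. MC903 resident libraries 7 and 8 and bone marrow library 15 had the most, 34560, 35246 and 32814, while bone marrow libraries 11, 13 and 14, with 16025 to 19817, had fewer than every resident library, and the part of this in the results was not tested. Results for bone marrow cells are therefore given with and without library 15, and calls that changed when libraries 7, 8 and 15 were all left out are given as well. These are bulk values of pooled cells, in which fewer cells expressing a gene and less RNA per cell cannot be told apart.

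The stretches of DNA just before RefSeq transcript starts of the 3 genes that differed between groups are shown first, since they are the regulatory sequence nearest to the transcripts discussed. Each is the 250 bases upstream of a RefSeq start on GRCm38.p6, written 5′ to 3′ on the gene's strand. RefSeq promoter entries were found for 7 of the 10 genes. Srgn had a second entry, which is not shown. It lies 19694 bases from the gene's outermost start and also precedes a start within 100 bases of that of a principal transcript. Of its bases 42.8% were G or C, and it held no match to any motif searched here, the TATA box included. Capitals mark matches, on either strand, to core promoter elements. For a TATA box the letters searched were TATAAA. The box named CCAAT was searched by the letters of its name. For a GC box the letters were GGGCGG. The Srgn window is chr10:62527446-62527695, minus strand. The Hs3st1 window is chr5:39644632-39644881, minus strand, and lies inside the annotated gene, 110844 bases from its outermost start, before a start within 100 bases of that of a principal transcript in GENCODE M21. The Hs2st1 window is chr3:144570217-144570466, minus strand.
Srgn: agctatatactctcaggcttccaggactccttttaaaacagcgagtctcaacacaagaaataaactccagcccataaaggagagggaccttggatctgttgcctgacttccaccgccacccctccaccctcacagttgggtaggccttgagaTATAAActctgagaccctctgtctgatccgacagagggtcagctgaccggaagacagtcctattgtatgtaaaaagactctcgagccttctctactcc
Hs3st1: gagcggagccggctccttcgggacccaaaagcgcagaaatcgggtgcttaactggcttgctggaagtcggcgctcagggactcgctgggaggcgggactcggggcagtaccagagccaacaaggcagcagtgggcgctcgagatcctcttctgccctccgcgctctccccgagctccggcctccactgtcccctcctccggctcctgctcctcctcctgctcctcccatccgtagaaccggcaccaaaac
Hs2st1: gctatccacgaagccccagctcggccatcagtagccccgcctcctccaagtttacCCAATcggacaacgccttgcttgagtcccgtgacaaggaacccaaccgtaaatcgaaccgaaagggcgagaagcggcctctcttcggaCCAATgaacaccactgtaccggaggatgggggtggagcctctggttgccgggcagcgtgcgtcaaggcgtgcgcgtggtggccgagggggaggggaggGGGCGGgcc
The Srgn window held 1 TATA box match, beginning 98 bases before the start, and 49.6% of its bases were G or C. The Hs2st1 window held CCAAT matches beginning 195 and 107 bases before the start and a GC box match beginning 9 bases before it, with 64.4% G or C. The Hs3st1 window, with 66.0% G or C, held no match to any of them. Over 32851 RefSeq upstream windows of the same length, 12.4% held the TATA box letters, 33.8% the CCAAT letters and 32.7% the GC box letters. None of the 3 windows held, on either strand, a GATA site (A or T, then GATA, then A or G), which 26.5% of all windows held. The same was true of an E-box (CACGTG or, as the other form searched, CATGTG), present in 17.6% of all windows, of an AP-1 site (TGAGTCA), present in 4.46%, and of a cyclic AMP response element (TGACGTCA), present in 1.55%. These motifs do not overlap one another in the windows shown, and a match here is a run of letters, not a measured site.

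Levels of different genes were compared as CPM per kilobase of exon. Srgn stood far above the enzymes in each group, at 1165 ± 216 CPM per kilobase (SD, n = 5) in untreated resident, 1245 ± 283 (SD, n = 5) in MC903 resident and 2254 ± 437 (SD, n = 4) in bone marrow cells. Among the 21014 genes tested that was rank 41, 27 and 21. Ndst2, the N-deacetylase and N-sulfotransferase of heparin, followed in resident cells with 177 ± 33.8 and 205 ± 43.4 CPM per kilobase (SD, n = 5 each). Hs3st1, which adds the 3-O-sulfate group that the antithrombin binding site of heparin needs, came next there with 77.3 ± 23.1 and 107 ± 30.5 (SD, n = 5 each). In bone marrow cells Hs3st1, at 313 ± 79.6 CPM per kilobase (SD, n = 4), had the higher mean of that pair, and Ndst2 was at 207 ± 78.4 (SD, n = 4), with library ranges of 238 to 401 and 101 to 290 that overlapped.

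The remaining enzymes were lower. Hs2st1, the uronosyl 2-O-sulfotransferase, was at 24.0 ± 2.85 CPM per kilobase in untreated resident, 24.3 ± 6.05 in MC903 resident and 10.4 ± 2.47 in bone marrow cells (SD, n = 5, 5 and 4). Means of Ext1, Ext2, Ndst1, Hs6st1, Xylt1 and Glce lay between 1.17 and 11.4 CPM per kilobase. In untreated cells their order was Ext1 at 9.13, Ext2 at 8.99, Ndst1 at 5.91, Hs6st1 at 4.57, Xylt1 at 3.98 and Glce at 2.16, and the ranges over libraries of each neighbouring pair in that order overlapped. Glce, the epimerase, held the last place among the 10 genes in all 3 groups.

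**Figure D1:**
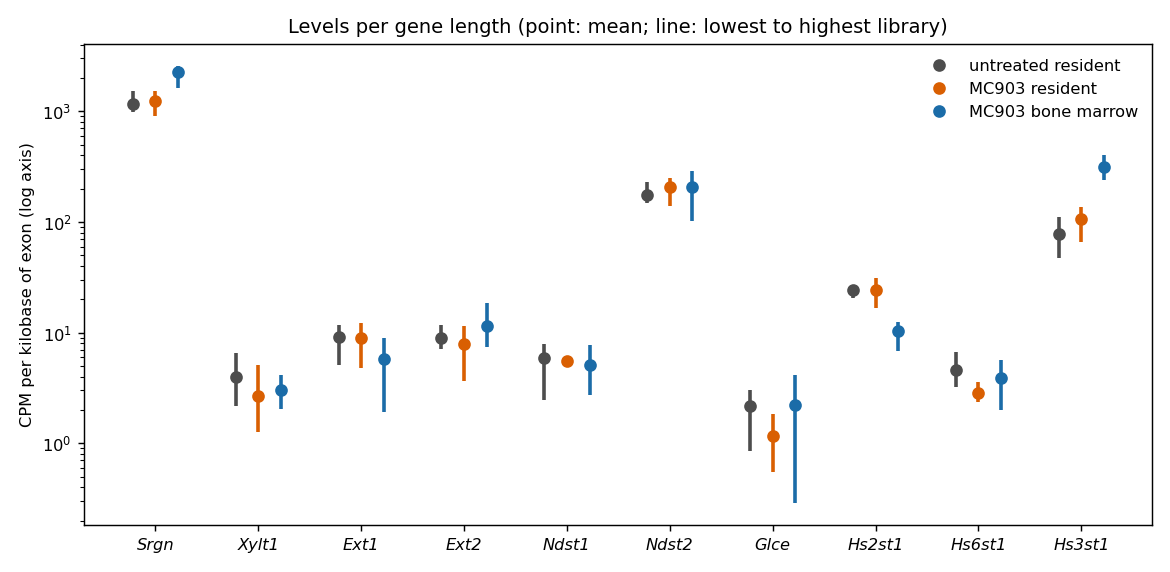
Mean level of the 10 genes in each group in CPM per kilobase of exon on a log axis, with a line from the lowest to the highest library (n = 5, 5 and 4). Srgn lies above 900 CPM per kilobase in every library, and Ndst2 and Hs3st1 lie above the other 7 enzymes in group means.

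In resident mast cells, none of the 10 genes differed between MC903-treated and untreated skin past the test's threshold. The comparison asks what the treatment does to mast cells already living in the skin. With edgeR's quasi-likelihood test and Benjamini-Hochberg adjustment over 21014 genes, 0 of 10 were called, with adjusted p-values from 0.43 for Hs3st1 to 0.994 for Ext1, whereas 2.25% of all genes tested were called. An unadjusted p under 0.05 was reached by 0 of 10 in edgeR, 1 of 10 in the DESeq2 Wald test (Hs3st1) and 0 of 10 in limma voom, and those other tools called 0 of 10 as well. In all 10 the libraries of the groups overlapped, as against 5.33% of genes tested without overlap. The median log2 fold change was -0.059 over the 10 genes and 0.24 over all genes tested.

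Serglycin itself was at 2558 ± 474 CPM in untreated resident and 2735 ± 621 CPM in MC903 resident cells (SD, n = 5 each), a log2 difference of 0.10 ± 0.18 (SE, edgeR adjusted p = 0.91). Ndst2 was at 802 ± 154 and 934 ± 197 CPM (SD, n = 5 each), a log2 difference of 0.22 ± 0.23 (SE, edgeR adjusted p = 0.805). Neither difference exceeded its standard error. The widest gaps in this comparison were for Glce, at 14.7 ± 5.55 and 7.98 ± 3.84 CPM, with a log2 difference of -0.88 ± 0.62 (SE), for Hs6st1, at 25.3 ± 8.70 and 15.9 ± 3.09 CPM, with -0.67 ± 0.38 (SE), and for Xylt1, at 38.4 ± 19.3 and 25.8 ± 14.97 CPM, with -0.57 ± 0.41 (SE). Their edgeR adjusted p-values were 0.654, 0.52 and 0.658. These 3 are the members with the lowest levels per length, and their libraries varied widely, with Xylt1 between 20.8 and 62.6 CPM among untreated and between 12.3 and 48.8 CPM among MC903 resident libraries.

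**Figure D2:**
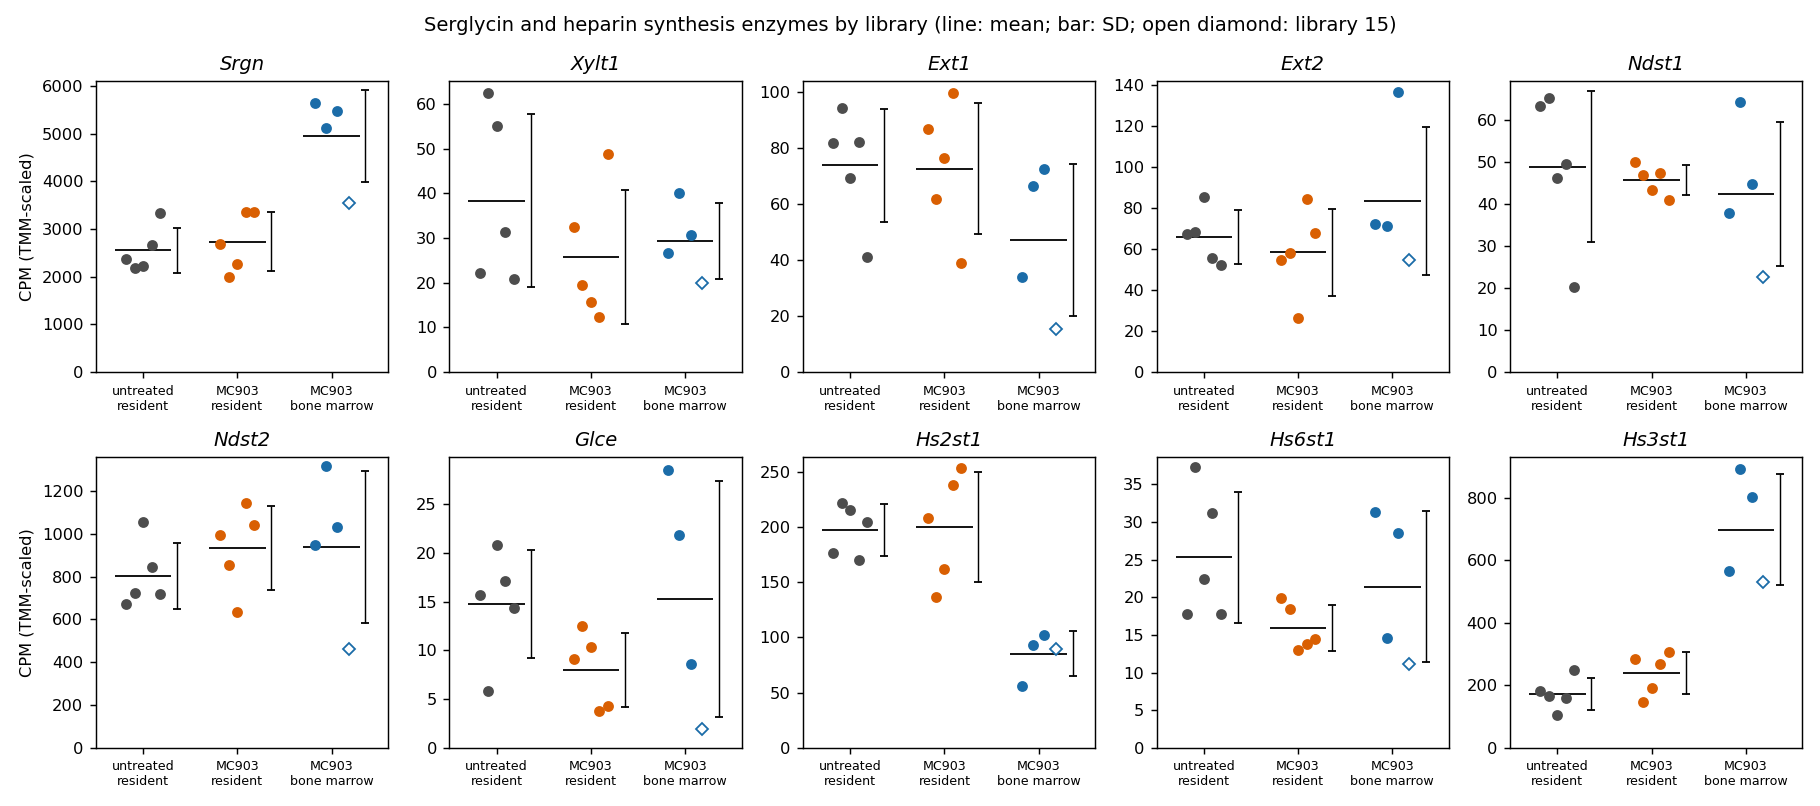
Level of each of the 10 genes in every library, in TMM-scaled CPM on linear axes starting at 0, with the group mean (line) and SD (bar) for n = 5, 5 and 4 libraries. Srgn and Hs3st1 lie higher and Hs2st1 lower in all 4 bone marrow libraries than in all 10 resident libraries, and library 15 (open diamond) is the lowest bone marrow library for 9 of the 10 genes, all but Hs2st1.

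Bone marrow cells carried more serglycin and Hs3st1 transcript and less Hs2st1 transcript than resident cells of either kind, and the other 7 genes did not pass the test. These comparisons ask how the mast cells sorted as a separate population in MC903-treated skin differ from the resident ones. Against MC903 resident cells, 3 of 10 genes were called (2 higher, 1 lower), where 2.27% of all genes tested were (1.32% higher, 0.952% lower). Against untreated resident cells the count was again 3 of 10 (2 higher, 1 lower), where 6.87% of all genes tested were called (3.49% higher, 3.37% lower). Srgn, Hs3st1 and Hs2st1 were the genes called in both, and the same 3 of 10 were called in each when library 15 was left out. Over all genes tested, 704 and 1549 were called without that library, as against 477 and 1443 with it. Both comparisons use the same 4 bone marrow libraries, so they are not independent of each other. The libraries did not overlap for 3 of 10 genes in each, as against 8.29% and 10.4% of all genes tested. The 10 genes were chosen with earlier results of these data known. Their shares beside those of all genes therefore describe the set and do not test it. The median log2 fold change over the 10 genes was 0.31 and -0.079, beside -0.28 and -0.14 over all genes tested.

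Srgn (ENSMUSG00000020077.14, GRCm38 chromosome 10, 62493833 to 62527451, minus strand, protein coding) had 5653, 5131, 5471 and 3547 CPM in bone marrow libraries 11, 13, 14 and 15. The level was 2693, 1995, 2271, 3367 and 3349.7 CPM in MC903 resident libraries 6 to 10, and at 2365, 2184, 2233, 2675 and 3333 CPM in untreated libraries 1 to 5. All 4 bone marrow libraries were above all 10 resident ones, although library 15 exceeded resident library 9 by little. The log2 difference was 0.86 ± 0.19 (SE) against MC903 resident cells, a 1.81-fold higher level (edgeR adjusted p = 0.0179), and 0.95 ± 0.19 (SE) against untreated resident cells, 1.94-fold higher (edgeR adjusted p = 0.00288). Without library 15 the differences were 0.996 ± 0.179 and 1.09 ± 0.18 (SE), and the edgeR adjusted p-values were 0.00218 and 0.000327. The call against MC903 resident cells was lost without MC903 resident library 7 or library 8 (edgeR adjusted p = 0.0619 and 0.0515), so 7 of the 9 leave-one-out fits, which drop the libraries of this comparison singly, kept the call. Those were the MC903 resident libraries with the least Srgn, the smallest total counts and the most genes with a count, and with libraries 7, 8 and 15 all left out Srgn was called in both comparisons. The size of the difference depended on scaling. With an offset for gene length estimated over all genes tested it was 1.77 against MC903 resident and 1.60 against untreated cells, and the lowest values, with that offset estimated from genes at 10 CPM or more, were 0.58 and 0.81. Srgn was called with either offset.

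Hs3st1 (ENSMUSG00000051022.7, GRCm38 chromosome 5, 39613935 to 39755475, minus strand, protein coding) showed the largest fitted difference among the 10 genes in both bone marrow comparisons over all libraries. With libraries 7, 8 and 15 left out, Glce (1.77 ± 0.67, SE, not called) and Hs2st1 (-1.49 ± 0.23, SE) differed more from MC903 resident cells than Hs3st1 did (1.38 ± 0.26, SE). It was at 566, 893, 803 and 531 CPM in bone marrow libraries 11, 13, 14 and 15. MC903 resident libraries 6 to 10 had 285, 146, 190.3, 269 and 305 CPM, and untreated libraries 1 to 5 had 183, 165, 106, 160.2 and 249 CPM. The lowest bone marrow library thus stood well above the highest resident one, while the resident groups overlapped. The log2 difference was 1.55 ± 0.25 (SE, 2.92-fold, edgeR adjusted p = 0.00155) against MC903 resident and 2.02 ± 0.25 (SE, 4.05-fold, edgeR adjusted p = 2.86e-05) against untreated resident cells. Hs3st1 was called in all 9 leave-one-out fits and under all 10 other alternatives that tested it, in both comparisons, with edgeR adjusted p-values of 0.000334 and 5.89e-06 without library 15. Its size also depended on scaling, at 2.43 and 2.66 with the length offset over all genes and 1.27 and 1.89 with that offset from genes at 10 CPM or more.

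Hs2st1 (ENSMUSG00000040151.9, GRCm38 chromosome 3, 144429706 to 144570181, minus strand, protein coding) went the other way. It was at 55.8, 93.3, 102 and 89.3 CPM in bone marrow libraries 11, 13, 14 and 15. MC903 resident libraries 6 to 10 had 208, 137, 162, 238 and 254 CPM, and untreated libraries 1 to 5 had 176, 222, 215, 169.7 and 204 CPM. Every bone marrow library was below every resident one, and library 15 sat among the other 3. The log2 difference was -1.23 ± 0.23 (SE, 2.35-fold lower, edgeR adjusted p = 0.00395) against MC903 resident and -1.21 ± 0.23 (SE, 2.32-fold lower, edgeR adjusted p = 0.00152) against untreated resident cells. Without library 15 it was -1.25 and -1.24, with edgeR adjusted p-values of 0.0056 and 0.00258. The calls were lost with an offset for gene length estimated over all genes tested, where the differences were -0.81 and -0.83 (edgeR adjusted p = 0.0951 and 0.101), and they held when that offset was estimated from genes at 10 CPM or more. Per length and within a library, Hs3st1 exceeded Hs2st1 by 3.12-fold on average (geometric mean) in untreated resident, 4.36-fold in MC903 resident and 30.2-fold in bone marrow cells, with bone marrow libraries between 21.9- and 37.3-fold, a ratio chosen after the values were seen.

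**Figure D3:**
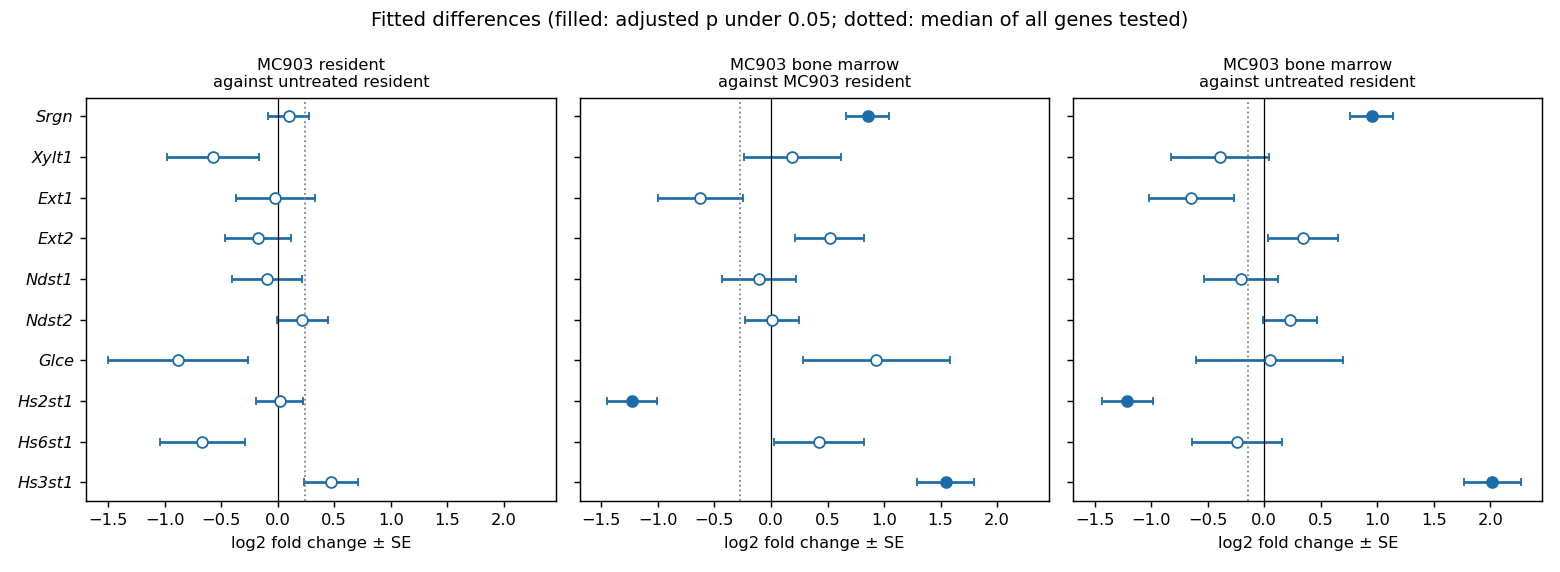
Fitted log2 fold change ± SE of the 10 genes in the 3 comparisons, with filled points for an edgeR adjusted p under 0.05 and a dotted line at the median of all genes tested (0.24, -0.28 and -0.14). No point is filled for MC903 resident against untreated resident cells, and Srgn, Hs2st1 and Hs3st1 are filled in both bone marrow comparisons.

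N-sulfation in every library was represented mainly by Ndst2. Ndst2 (ENSMUSG00000039308.6, GRCm38 chromosome 14, 20723730 to 20734562, minus strand) had 672, 724, 1053, 842 and 720.0 CPM in untreated libraries 1 to 5. It had 993, 855, 634, 1144 and 1041 CPM in MC903 resident libraries 6 to 10, and at 949, 1317, 1030.3 and 460.0 CPM in bone marrow libraries 11, 13, 14 and 15. The groups overlapped throughout, with library 15 the lowest of all 14. Ndst1 (ENSMUSG00000054008.9, chromosome 18, minus strand), the form found in most tissues, was at 20.3 to 65.3 CPM among untreated, 41.0 to 50.1 CPM among MC903 resident and 22.7 to 64.3 CPM among bone marrow libraries. Rps14, a highly expressed ribosomal protein gene on the opposite strand, lies within the span of Ndst1 and shares 0 exonic bases with it. Against MC903 resident cells the log2 differences of bone marrow cells were 0.0085 ± 0.24 for Ndst2 and -0.11 ± 0.33 for Ndst1, and against untreated cells 0.23 ± 0.24 and -0.21 ± 0.33 (SE, edgeR adjusted p from 0.655 to 0.991). Without library 15 they were 0.24 ± 0.20 for Ndst2 and 0.11 ± 0.33 for Ndst1 against MC903 resident cells, and 0.45 ± 0.20 and -0.0010 ± 0.33 against untreated cells (SE), and neither gene was called (edgeR adjusted p of at least 0.155).

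The ratio of the pair within a library does not depend on a single scale factor per library, though an offset for gene length can change it. The log2 ratio of Ndst2 to Ndst1 per length was 4.99 ± 0.73 (SD, n = 5) in untreated resident, 5.19 ± 0.32 (SD, n = 5) in MC903 resident and 5.33 ± 0.15 (SD, n = 4) in bone marrow cells, which is 31.8-, 36.5- and 40.3-fold. It lay between 4.27 and 6.01 over the 14 libraries, so Ndst2 was at least 19.4-fold above Ndst1 in each of them. MC903 resident cells differed from untreated cells by 0.20, and bone marrow cells from MC903 resident cells by 0.14 and from untreated cells by 0.34. Exact two-sided permutation tests gave p = 0.571, 0.468 and 0.333 (each 0.571 after Benjamini-Hochberg adjustment over the 3 comparisons), where the smallest p these group sizes allow is 0.00794. Differences of that size were within the spread between libraries.

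The chain-starting and chain-building enzymes did not pass the test in either bone marrow comparison. Xylt1 (ENSMUSG00000030657.11, chromosome 7, 117380979 to 117673580, plus strand), a xylosyltransferase, averaged 29.3 ± 8.46 CPM (SD, n = 4) among bone marrow libraries, with log2 differences of 0.19 ± 0.43 against MC903 resident and -0.39 ± 0.43 against untreated cells (SE). Ext1 (ENSMUSG00000061731.9, chromosome 15, 53064038 to 53346159, minus strand) averaged 47.1 ± 27.1 CPM (SD, n = 4) among bone marrow libraries, against 72.6 ± 23.4 and 73.7 ± 20.3 CPM (SD, n = 5 each) in MC903 and untreated resident cells. Its bone marrow libraries were spread from 15.4 CPM in library 15 to 72.6 CPM in library 14. The partner gene Ext2 (ENSMUSG00000027198.16, chromosome 2, 93661028 to 93822568, minus strand) averaged 83.7 ± 36.2 CPM (SD, n = 4), against 58.4 ± 21.3 and 65.9 ± 13.1 CPM (SD, n = 5 each). Library 14 held the highest Ext2 value of all, 137 CPM. The log2 differences against MC903 resident cells were -0.62 ± 0.38 for Ext1 and 0.52 ± 0.31 for Ext2 (SE, edgeR adjusted p = 0.4 and 0.395). Without library 15 they were -0.32 ± 0.33 for Ext1, 0.68 ± 0.32 for Ext2 and 0.34 ± 0.45 for Xylt1 (SE, edgeR adjusted p = 0.529, 0.134 and 0.653). Against untreated cells the values without it were -0.36, 0.50 and -0.24 (edgeR adjusted p = 0.487, 0.285 and 0.765), so the Ext1 difference was smaller without library 15 in both comparisons and was called in neither.

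The epimerase Glce (ENSMUSG00000032252.14, chromosome 9, 62057248 to 62122655, minus strand) varied most among the bone marrow libraries relative to its mean, at 28.5, 21.8, 8.59 and 1.97 CPM in libraries 11, 13, 14 and 15. Its log2 difference was 0.93 ± 0.65 against MC903 resident and 0.048 ± 0.65 against untreated cells (SE, edgeR adjusted p = 0.478 and 0.982). Hs6st1 (ENSMUSG00000045216.7, chromosome 1, 36068400 to 36106446, plus strand), a 6-O-sulfotransferase, was at 31.4, 14.6, 28.5 and 11.2 CPM in those libraries, and its log2 differences were 0.43 ± 0.40 and -0.24 ± 0.40 (SE, edgeR adjusted p = 0.621 and 0.805). These standard errors were larger than the 0.19 of Srgn. Without library 15 the differences against MC903 resident cells were 1.31 ± 0.59 for Glce and 0.65 ± 0.42 for Hs6st1 (SE, edgeR adjusted p = 0.129 and 0.288), and those against untreated cells were 0.42 ± 0.60 and -0.028 ± 0.43 (SE, edgeR adjusted p = 0.681 and 0.984).

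Around these 10 genes, 80 further genes of glycosaminoglycan metabolism were listed in 8 groups by role, of which 79 were in the table and 69 were tested. None of the 69 was called in MC903 resident against untreated cells by edgeR, where 7 had an unadjusted p under 0.05. The DESeq2 Wald test called 4 of them (B3galt6, Csgalnact2, Glb1 and B3gat3), beside 5.6% of all genes to which it gave an adjusted p, and limma voom 2 (Cd44 and Csgalnact2), beside 6.46% of all genes, names given here after their values were seen. By edgeR, bone marrow cells had 1 gene higher (Glb1) and 1 lower (Hs3st3b1) of 69 against MC903 resident cells, where 2.27% of all genes tested were called. DESeq2 called 8 of the 69 there, beside 8.81% of all genes, and limma voom 11, beside 9.6%. Against untreated cells edgeR called 7 higher and 3 lower of 69, where 6.87% of all genes tested were called, and DESeq2 and limma voom called 14 each, beside 16.1% and 10.4% of all genes. Without library 15, which left 70 genes tested, the counts were 2 higher (Papss2, Glb1) and 2 lower (Hs3st3b1, Col18a1) against MC903 resident cells. In that fit 704 of all genes tested were called, as against 477 over all libraries. Against untreated cells the counts without it were 4 higher, with Papss2, Gusb and Glb1 among them, and 4 lower, with Hs3st3a1, Hs3st3b1 and Col18a1 among them. There 1549 of all genes tested were called, as against 1443 over all libraries. With libraries 7, 8 and 15 left out, 0 were higher and 1 was lower (Hs3st3b1) of 67 against MC903 resident cells, and 4 were higher and 3 lower against untreated cells. Over all genes tested, 339 and 1405 were then called. The median log2 fold change of the 69 genes was 0.38, -0.12 and -0.13 in the 3 comparisons.

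Among the other sulfation enzymes of heparan sulfate, 5 of 10 were tested, and by edgeR the genes that fell were Hs3st3b1 in both bone marrow comparisons and Hs3st3a1 against untreated cells, 3-O-sulfotransferases that make a 3-O-sulfated structure other than the antithrombin site. Hs3st3b1 was at 30.4 ± 11.3 CPM in untreated resident, 28.0 ± 13.7 in MC903 resident and 7.52 ± 4.33 CPM in bone marrow cells (SD, n = 5, 5 and 4). Its log2 difference was -1.90 ± 0.48 against MC903 resident cells (SE, edgeR adjusted p = 0.0411) and -2.02 ± 0.49 against untreated cells (SE, edgeR adjusted p = 0.0124). The former call stood in 3 of 9 leave-one-out fits (edgeR adjusted p up to 0.106) and the latter in all 9. Hs3st3a1 was at 0, 0.0693, 5.40 and 0 CPM in bone marrow libraries 11, 13, 14 and 15, against 31.6 to 48.3 CPM among MC903 resident and 23.1 to 63.8 CPM among untreated libraries. Every bone marrow library was below every resident one. It was called against untreated cells (edgeR adjusted p = 0.0402, a call that stood in 3 of 9 leave-one-out fits) and not against MC903 resident cells (edgeR adjusted p = 0.0922). Against MC903 resident cells DESeq2 called both genes and limma voom called Hs3st3a1 but not Hs3st3b1, and against untreated cells both tools called both. These paralogs have near-identical catalytic parts, so their separate values are uncertain if reads were shared. In the same cells in which Hs3st1 was higher, these 2 genes had lower levels.

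Hs6st2, named here after its values were seen, was the main 6-O-sulfotransferase transcript, at 44.7 ± 5.30, 44.1 ± 13.2 and 41.0 ± 8.74 CPM per kilobase (SD, n = 5, 5 and 4) in untreated resident, MC903 resident and bone marrow cells. Per length it exceeded Hs6st1 by 10.2-, 15.04- and 11.4-fold on average (geometric mean). MC903 resident cells differed from untreated cells by -0.020 ± 0.20 on the log2 scale, and bone marrow cells by -0.11 ± 0.21 from MC903 resident and by -0.13 ± 0.21 from untreated cells (SE, edgeR adjusted p from 0.805 to 0.99). Without library 15 the bone marrow differences were 0.019 ± 0.22 and -0.0098 ± 0.22 (SE, edgeR adjusted p = 0.968 and 0.992).

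**Figure D4:**
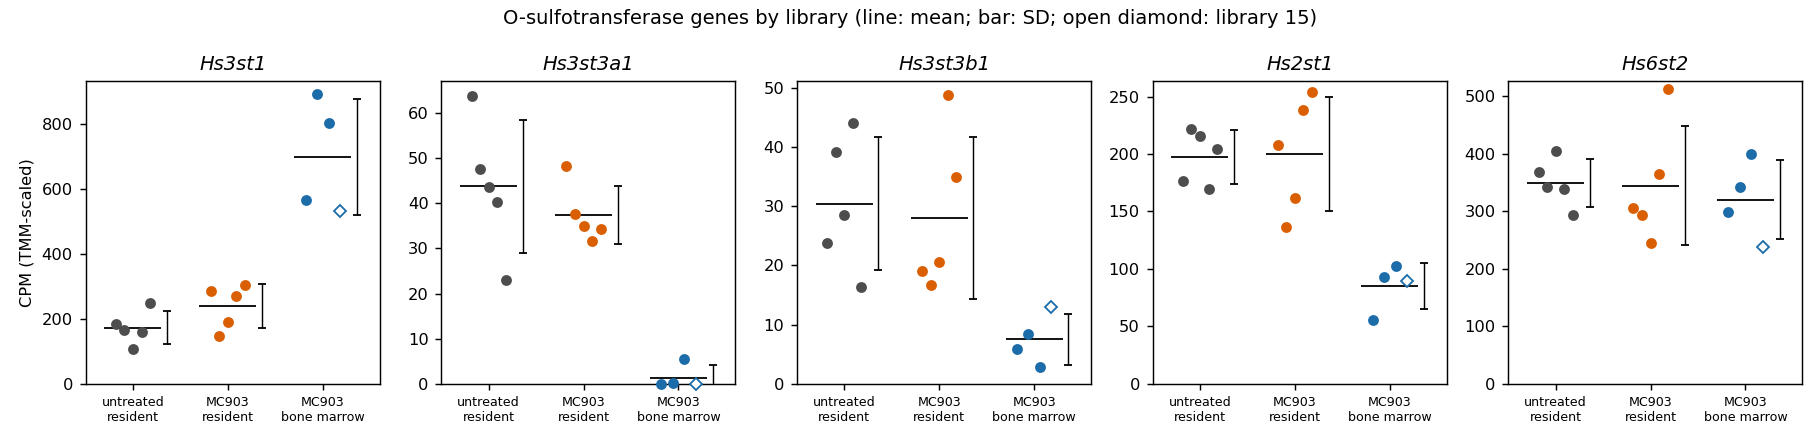
Level of 5 heparan sulfate O-sulfotransferase genes in every library, in TMM-scaled CPM on linear axes starting at 0, with the group mean (line) and SD (bar) for n = 5, 5 and 4 libraries. Bone marrow libraries lie above all resident ones for Hs3st1 and below all of them for Hs3st3a1, Hs3st3b1 and Hs2st1, and the groups overlap for Hs6st2.

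Of 6 linkage region genes, 2 rose against untreated cells, B3galt6 and B3gat3, which add a galactose and the glucuronic acid of the linkage region. B3galt6 was at 23.0 ± 12.3 against 4.68 ± 2.45 CPM and B3gat3 at 36.3 ± 7.72 against 14.3 ± 4.69 CPM (SD, n = 4 and 5), with log2 differences of 2.30 ± 0.64 and 1.35 ± 0.34 (SE, edgeR adjusted p = 0.0322 and 0.0177). Both had their highest value in library 15. Without it the differences were 2.02 ± 0.69 and 1.23 ± 0.39 (SE), close to those with it, and were not called (edgeR adjusted p = 0.0879 and 0.0643), nor were they with libraries 7, 8 and 15 left out (0.116 and 0.0608). Of 11 precursor supply genes tested, Papss2, which makes the sulfate donor, rose against untreated cells, at 826 ± 233 against 483 ± 92.5 CPM (SD, n = 4 and 5), a log2 difference of 0.78 ± 0.23 (SE, edgeR adjusted p = 0.0398). The call stood in 3 of 9 leave-one-out fits. Library 15 held the lowest bone marrow value of Papss2, 491 CPM, and without it Papss2 was called in both bone marrow comparisons (edgeR adjusted p = 0.0153 against MC903 resident and 0.00497 against untreated cells). With libraries 7, 8 and 15 left out it was called against untreated cells (edgeR adjusted p = 0.00463) but not against MC903 resident cells (0.71 ± 0.21, SE, edgeR adjusted p = 0.116).

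Among the lysosomal enzymes that degrade these chains, Glb1 and Gusb rose in bone marrow against untreated cells. Glb1, a β-galactosidase, was at 143 ± 19.1 CPM in bone marrow, 49.3 ± 16.1 in MC903 resident and 28.9 ± 9.69 CPM in untreated cells (SD, n = 4, 5 and 5). Its log2 differences of 1.53 ± 0.28 and 2.30 ± 0.28 (SE) passed the test (edgeR adjusted p = 0.00362 and 2.13e-05), although Glb1 shares 165 exonic bases with Tmppe on the same strand. With libraries 7, 8 and 15 left out, the difference against MC903 resident cells was 1.26 ± 0.32 (SE) and was not called (edgeR adjusted p = 0.0643). Gusb, β-glucuronidase, was at 214 ± 90.1 against 99.4 ± 14.01 CPM in untreated cells, with 347 CPM in library 15 (SD, n = 4 and 5). Its edgeR adjusted p was 0.00536, and it was called without library 15 (edgeR adjusted p = 0.0334).

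Other core proteins gave 1 edgeR call among 15 tested, Sdc4 against untreated cells (edgeR adjusted p = 0.0352), and it rested on library 15. That library had 347 CPM of Sdc4, the other 3 bone marrow libraries 0.139 to 0.936 CPM and untreated libraries at most 0.113 CPM, and without library 15 the edgeR adjusted p was 0.228. Neither DESeq2 nor limma voom called Sdc4. Among the core proteins DESeq2 called Dcn and Gpc3, and limma voom Dcn, Gpc3, Col18a1, Gpc1 and Cd44, each in at least 1 of the 3 comparisons, names given after their values were seen. Without library 15, edgeR called Col18a1 lower in both bone marrow comparisons (edgeR adjusted p = 0.0333 against MC903 resident and 0.0402 against untreated cells). The lists in which edgeR called no gene were the 3 EXT-like genes, 3 tested genes for desulfation and cleavage, and 14 tested genes for chondroitin sulfate chains. In the last 2 of these, other tools called Sulf1 (DESeq2 and limma voom) and Csgalnact2 (both), Chpf2 (DESeq2), and Chpf, Dse and Chst12 (limma voom), each in at least 1 of the 3 comparisons, names given after their values were seen. Extl3, which starts heparan sulfate chains, had the highest mean level per length of the first list over the 14 libraries, at 3.76, 3.65 and 2.49 CPM per kilobase in untreated resident, MC903 resident and bone marrow cells. Extl2 had the higher mean in both resident groups (4.003 and 4.09 CPM per kilobase), by less than the SD of either gene, and the lower one in bone marrow cells (1.06). Sulf2, an extracellular 6-O-endosulfatase, led the next list, with 149 CPM in library 15 and at most 6.17 CPM elsewhere. Chst12, a chondroitin 4-O-sulfotransferase, led the last in the mean per length over the 14 libraries and in bone marrow cells, but Csgalnact2 and Dse had higher means per length in untreated cells, and Chst15 and Chst14 in MC903 resident cells, each by less than its own SD and that of Chst12. Chst12 was at means of 21.98, 17.4 and 36.2 CPM in the 3 groups, with an edgeR adjusted p of 0.141 against MC903 resident and 0.271 against untreated cells. The part of the macrophage and dendritic cell transcripts of library 15 in the B3galt6, B3gat3 and Gusb results was not tested beyond leaving that library out.

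Genes whose levels most resembled those of the called members were sought over the 14 libraries among 6024 genes averaging 20 CPM or more, by Pearson's r of log2 CPM. For Srgn they were H2afy (r = 0.93), Rpl14 (0.93) and Hs3st1 (0.92). For Hs3st1 they were Glb1 (0.97), Nkg7 (0.96) and Fdx1 (0.96). For Hs2st1 they were Gpr141b (0.97), Lsamp (0.94) and Gnai1 (0.94). These values describe libraries that fall into 3 groups and share their scaling, and after the group means were subtracted the 9 values lay between 0.71 and 0.84. Lsamp was at 79.0 ± 8.93, 80.1 ± 30.2 and 2.63 ± 3.04 CPM and Gpr141b at 508 ± 83.1, 511 ± 118 and 93.9 ± 39.1 CPM in untreated resident, MC903 resident and bone marrow cells (SD, n = 5, 5 and 4). Nkg7 was at 27.5 ± 10.4, 53.8 ± 23.2 and 218 ± 80.8 CPM in the same order.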

How the data were processed

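The authors deposited raw read counts per gene for 14 libraries, as whole numbers per the file headers and values. The submitters' processing notes name STAR, featureCounts and mm10, with no roles or versions. The strand setting was not given in the sources used here. Per the labels' protocols, cDNA was made with SMART-Seq HT from small sorted pools and tagged with Nextera XT, so reads are amplified and not independent molecules. Of the gene identifiers, 55094 had the same version and coordinates in GENCODE M21 on GRCm38, and 55394 had a symbol.

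Libraries were grouped by treatment and cell type labels. Low counts were removed by filterByExpr with the groups given (at least 10 counts, total of at least 15). Libraries were scaled by TMM and fitted in 1 model of 3 groups over 14 libraries with edgeR 4.0.16 (robust glmQLFit, glmQLFTest) in R 4.3.3, with Benjamini-Hochberg adjustment over 21014 genes and a threshold of 0.05. The SE was computed by dividing the size of a log2 fold change by the root of its F statistic. CPM are TMM-scaled. The Ndst2 to Ndst1 ratio added 0.5 to each count. Total counts were 13068078 to 31781926, and the common dispersion was 1.33. Counting error was not separated from the spread between libraries. The code was tested on simulated data. Alternatives used DESeq2 1.42.0, limma 3.58.1, other scalings and filters, and left out each library in turn. An offset for length from genes of at least 10 CPM was chosen after seeing the data. Named were all 10 members, every called gene of the 8 further lists (up to 10 per comparison), the highest gene per length, in the mean over all libraries, of lists without an edgeR call, and the 3 genes most like Srgn and each called member. Some genes of the lists that the rule would name are not reported here. The members and lists were chosen with earlier results of these data known. Motifs in the upstream windows were chosen after the sequences were seen.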

Additional observations from a re-analysis of the deposited data

How the results depend on the processing

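The members called did not change in number in MC903 resident against untreated cells (0 under every alternative run) and were 2 or 3 in the bone marrow comparisons under the alternatives other than leaving out 1 library. Hs2st1 was lost with the length offset over all genes, and Srgn, by construction, with an added minimum log2 fold change of 1. Leaving out library 7 or 8 also lost Srgn against MC903 resident cells. Of the alternative values of the members, 520 kept their direction and side of the threshold, 56 changed sign and 4 lost the call. The added minimum fold change is not among these values. None of those that changed sign was called, and the largest had an absolute value of 0.45. No paired analysis was made, because the labels name no animal for any library. Sharing of animals between the MC903 resident and bone marrow libraries can therefore not be judged. The tests treated all libraries as independent. The cause of the changes listed here was not tested.

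The number of all genes called moved by over 1.5 times as follows. In MC903 resident against untreated cells it was 473, against 305 with the length offset over all genes, 1072 with the DESeq2 Wald test, 1358 with limma voomWithQualityWeights and 253 without libraries 7, 8 and 15. In bone marrow against MC903 resident cells it was 477, against 1443 with that offset, 748 without the filter, 1721 with DESeq2, 2017 with voom and 315 in a fit of these groups alone, and leaving out 1 library gave 298 (library 6) to 704 (library 15). In bone marrow against untreated cells it was 1443, against 2758 with DESeq2 and 2194 with voom. The split of calls into higher and lower depended on scaling. MC903 resident against untreated cells gave 120 and 353, but 207 and 294 with DESeq2 size factors, 251 and 265 with TMM from genes of at least 10 CPM, 39 and 266 with the length offset and 193 and 292 with that offset from genes of at least 10 CPM. Bone marrow against MC903 resident cells gave 277 and 200, but 167 and 242, 178 and 258, 1279 and 164, and 172 and 254 in the same order. Bone marrow against untreated cells gave 734 and 709, but 939 and 313 with the length offset. The median over all genes tested moved with them under these scalings, from 0.24 to between -0.016 and 0.45 in MC903 resident against untreated cells, from -0.28 to between -0.44 and 0.23 in bone marrow against MC903 resident cells and from -0.14 to between -0.16 and 0.14 in bone marrow against untreated cells.

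Signs turned for genes that were not called, as follows. In MC903 resident against untreated cells, Srgn was at -0.16 and Hs2st1 at -0.024 with the length offset, and Hs2st1 at -0.016 without the filter and at -0.082 with voom. With DESeq2 size factors or the DESeq2 test, with TMM from genes of at least 10 CPM or the filter at 10 CPM, and with the length offset from those genes, Ext1 was at 0.12, 0.17 and 0.26, Ndst1 at 0.044, 0.094 and 0.19 and Hs6st2 at 0.10, 0.15 and 0.21. Ext1 and Hs6st2 were at 0.044 and 0.034 in a fit of these groups alone, and at 0.031 and 0.18 without libraries 7, 8 and 15. Ext2 was at 0.027 with the length offset from genes of at least 10 CPM and at 0.072 without those 3 libraries. Leaving out 1 library gave -0.17 to 0.24 for Ext1, -0.33 to 0.083 for Ext2, -0.29 to 0.053 for Ndst1, -0.042 to 0.16 for Hs2st1 and -0.10 to 0.15 for Hs6st2. In bone marrow against MC903 resident cells, the length offset gave 0.43 for Ndst1 and 0.35 for Hs6st2, voom gave 0.063 for Hs6st2, and leaving out libraries 7, 8 and 15 gave 0.068 for Ndst1 and -0.012 for the log2 ratio of Ndst2 to Ndst1. Ndst2 was at -0.14 with DESeq2 size factors or test, -0.15 with TMM or the filter at 10 CPM, -0.095 with the length offset from those genes and -0.097 in a fit of these groups alone. Leaving out 1 library gave -0.030 to 0.42 for Xylt1, -0.41 to 0.11 for Ndst1, -0.23 to 0.24 for Ndst2 and -0.28 to 0.019 for Hs6st2. In bone marrow against untreated cells, the length offset gave 0.14 for Xylt1, 0.31 for Ndst1, 0.17 for Hs6st1 and 0.31 for Hs6st2, and the offset from genes of at least 10 CPM gave 0.057 for Ndst1 and 0.10 for Hs6st2. Leaving out 1 library gave -0.45 to 0.42 for Glce. Glce, Xylt1 and Hs6st1, the members with the lowest levels per length, had the largest standard errors of the 10 genes in all 3 comparisons.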
